A study of Mus musculus with 6 samples.

Results

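The comparison described here is between mouse embryonic stem cells (ESCs) 96 hours after an inducible Erk1 gene was switched off and the same line with Erk1 left on. It takes 2 of the 6 libraries of the study, chosen by their labels: the line labelled iErk1; Erk KO without doxycycline (Dox) for 96 hours, and that line kept with Dox. The other 4 libraries stand beside them as context. They were the same line without Dox for 48 hours, the same line without Dox for 96 hours with the Mek inhibitor PD0325901 during the last 48, and KH2 cells, labelled wild type, untreated or with PD0325901 for 48 hours. All 6 come from KH2 ESCs of a C57BL/6 x 129 background, and polyA RNA was sequenced. The 4 engineered libraries share the Erk knockout and the inducible Erk1, also where Dox was present, and the labels do not say whether the line is 1 clone, which doses of Dox and PD0325901 were used, or whether feeder cells were present.

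Erk1, encoded by Mapk3, is a last kinase of the Ras, Raf, Mek and Erk cascade, which carries Fgf signals to the nucleus. In mouse ESCs this cascade drives the exit from naive pluripotency and the choice of primitive endoderm, and a Mek inhibitor is a usual part of media that hold ESCs in the naive state. Active Erk also induces its own brakes, the Dusp phosphatases and the Spry and Spred proteins, together with immediate early transcription factors such as Egr1 and Fos.

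There was 1 library per group, so every ratio below compares 2 libraries, has no replicate check and comes with no p-value. Levels are RPKM, the reads of a gene divided by its length in kilobases and by the library total in 1e6 reads. Log2 ratios are of RPKM plus 0.5, library without Dox over library with Dox, and folds are ratios of reads scaled to the library totals, with a 95% interval for counting error only. A gene is called higher or lower only if its log2 ratio was at least 1 in size, its higher RPKM at least 1, its reads over both libraries at least 20, and its interval excluded 1. Of 11804 genes that could be compared, 899 were higher (7.62%) and 244 were lower (2.07%) 96 hours after Dox withdrawal, 9.68% in either direction. Each count of list members below is to be read against these shares. At 48 hours, against the same library with Dox, 315 of 11386 genes were higher (2.77%) and 242 were lower (2.13%), 4.89% in either direction.

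**Figure D1:**
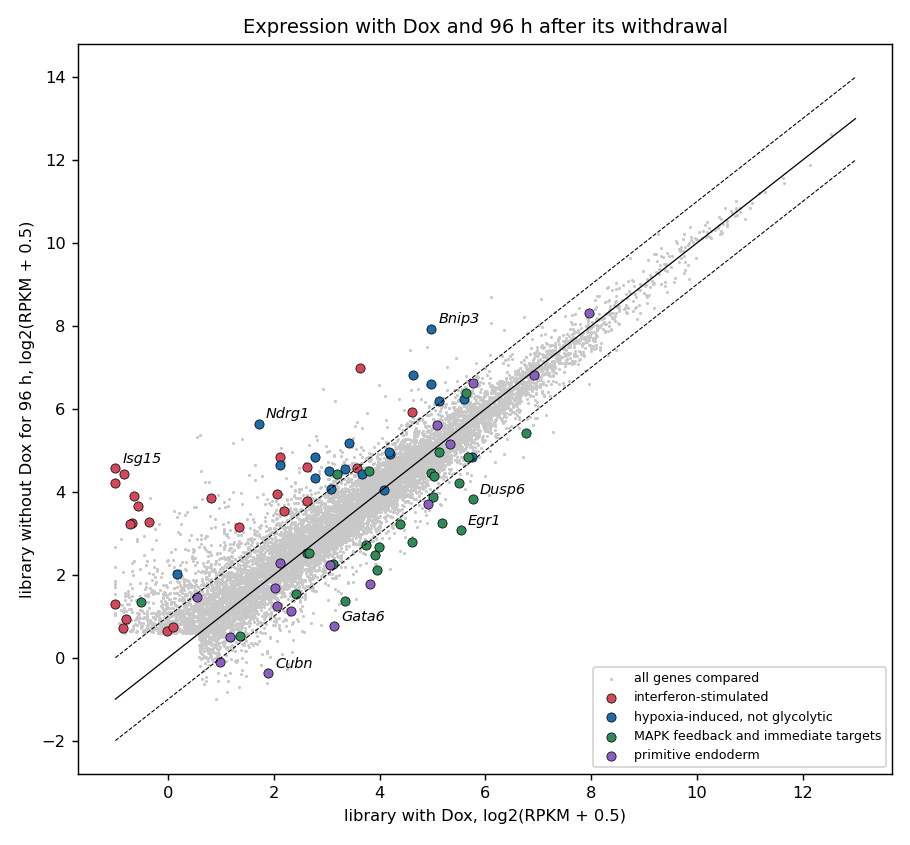
Expression of the 11804 compared genes in the library with Dox (horizontal axis) and in the library without Dox for 96 hours (vertical axis), both as log2(RPKM + 0.5); each point is 1 gene, the solid line marks equal levels and the dashed lines 2-fold differences. Interferon-stimulated and hypoxia-induced genes lie mostly above the upper dashed line, and MAPK targets and primitive endoderm genes mostly on or below the equal line.

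The depth was 9.41 times 1e6 reads with Dox and 9.95 times 1e6 reads after 96 hours, within a range of 9.05 to 9.95 over the 6 libraries. A single read on a gene of 2 kb equalled 0.0531 and 0.0502 RPKM. The library with Dox had reads in 16042 genes and the 96 hour library in 16857, against 17403 in untreated KH2 cells, and the median share of a gene's length covered was 78.5%, 82.3% and 91.1%. Higher calls were most frequent among weakly expressed genes: in the lowest quartile by mean RPKM 454 of 2951 genes were higher and 103 lower, and in the top quartile 72 were higher and 31 lower. The part of gene detection in these counts was not tested. The library with Dox itself stood apart from untreated KH2 cells, with 343 genes higher (2.76%) and 2662 lower (21.4%) of 12421. Levels in KH2 cells are therefore given beside many of the ratios, but not all. Markers of ESCs were present in all 6 libraries: the 10 defining genes summed to between 2748 and 4334 RPKM, and none was at 0 anywhere.

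Mapk3 was the switched gene, and its transcript was lower but still present after 96 hours. It stood at 14.8 RPKM with Dox, 6.86 after 48 hours and 6.75 after 96 hours, while KH2 cells had 56.4 untreated and 52.8 with PD0325901. The 96 hour library had 119 reads against 246 with Dox, a 2.19-fold lower level (1.75 to 2.75), and the 48 hour library had 118. In the 96 hour library with PD0325901 the level was 9.18 RPKM, and there Mapk3 did not pass the rule against the library with Dox, a comparison in which 10.9% of 11918 genes were higher and 3.08% lower. The files give gene totals, so reads from a transgene, a disrupted locus and an intact one cannot be told apart.

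Many feedback and immediate target genes of Erk were lower after 96 hours, but several were less reduced than at 48 hours. Of 31 listed feedback and immediate target genes 26 could be compared, and 13 were lower and 2 higher, with a median log2 ratio of −0.95 against 0.05 over all genes compared. At 48 hours 15 were lower and 1 was higher, with a median of −1.17. The components upstream did not move in this way: of 23 genes of the Ras, Raf and Mek cascade none passed in either direction.

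Egr1, an immediate early transcription factor, had the lowest ratio among lower genes with at least 100 reads over both libraries, with 45.7 RPKM with Dox, 2.11 after 48 hours and 7.95 after 96 hours. It was 5.76-fold lower than with Dox (5.02 to 6.63), and its level in untreated KH2 cells was 168 RPKM. Fos went from 35.8 RPKM with Dox to 10.03 at 48 hours and 9.06 at 96 hours, 3.95-fold lower (3.36 to 4.66). Its partner gene Fosb was 4.65-fold lower (3.63 to 6.03). With Dox both Egr1 and Fos were above their 96 hour level, and in all 4 engineered libraries they were below the KH2 level. These immediate early genes were not lower with PD0325901. In KH2 cells with the inhibitor Egr1 had 214 RPKM, Fos 163 and Fosb 62.0, against 168, 84.0 and 33.3 without it. In the 96 hour library with PD0325901 they had 12.3, 15.5 and 4.71 RPKM, against 7.95, 9.06 and 2.07 without it.

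The negative feedback genes were closer to wild type with Dox, and Dusp6 and Spry4 were higher at 96 than at 48 hours. Dusp6, whose product removes the activating phosphates of Erk, had 34.8 RPKM in untreated KH2 cells and 53.6 with Dox. It was at 6.45 RPKM after 48 hours and 13.7 after 96 hours, 3.91-fold below the library with Dox (3.49 to 4.38). Spry4, which holds back signals from receptor tyrosine kinases, had 23.9 RPKM with Dox, 1.54 at 48 hours and 6.41 at 96 hours, 3.73-fold lower (3.27 to 4.26). With PD0325901 in the last 48 hours Spry4 was at 0.132 RPKM and Dusp6 at 4.27, both below the level of the untreated 96 hour library. Dusp5 and Dusp4, further phosphatases of this family, had log2 ratios of −1.83 and −1.02, and Spred1, an inhibitor of Ras signalling, −1.17.

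Myc, a transcription factor of growth and self-renewal, went from 31.9 RPKM with Dox to 5.84 at 48 hours and 14.2 at 96 hours, 2.25-fold lower (1.97 to 2.57). Untreated KH2 cells had 19.4 RPKM. Etv1, Ier2, Phlda1 and Junb completed the 13 lower genes, with log2 ratios of −1.43, −1.35, −1.33 and −1.28. Etv4, an Ets factor used as a reporter of Fgf signalling, had 8.14 RPKM with Dox and 1.19 at 48 hours, a lower call, but 4.26 at 96 hours and no call (log2 ratio −0.86). Spry2 likewise was called lower at 48 hours and not at 96 hours, with 50.2, 22.2 and 28.2 RPKM in turn. The 2 higher genes were Ier3, at 8.68 RPKM with Dox and 21.1 after 96 hours, and Rasgef1a, with 6 and 65 reads. Etv5 (log2 ratio 0.75) did not pass and was above its level with Dox.

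**Figure D2:**
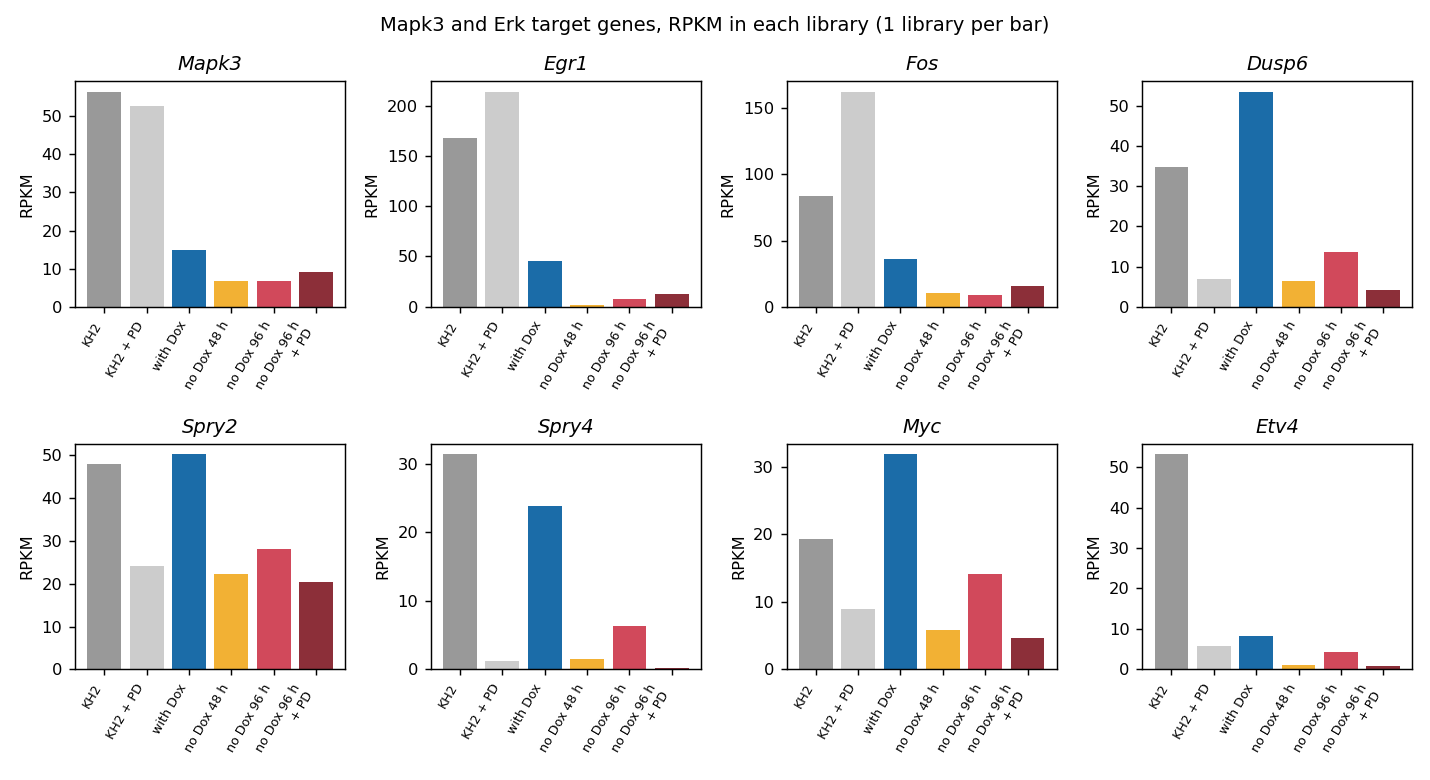
RPKM of Mapk3, Egr1, Fos, Dusp6, Spry2, Spry4, Myc and Etv4 in each of the 6 libraries, 1 bar per library on axes that start at 0. Dusp6, Spry2, Spry4, Myc and Etv4 are lowest without PD0325901 at 48 hours and partly higher at 96 hours, as for Dusp6 with 6.45 and 13.7 RPKM, whereas Mapk3 stays at 6.86 and 6.75 RPKM.

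Most of the largest ratios of the comparison belonged to interferon-stimulated genes. Of 24 listed genes 23 could be compared, and 20 were higher and none lower, with a median log2 ratio of 2.29. At 48 hours only 16 could be compared, and 7 were higher and 1 lower (median 0.85), so these medians are over different sets of genes. The median level of the listed genes was 2.06 RPKM in untreated KH2 cells, 0.383 with Dox, 1.90 after 48 hours and 12.6 after 96 hours, and it was 12.1 with PD0325901. Against untreated KH2 cells 15 of these genes were higher at 96 hours and none lower, a comparison in which 4.29% of 12625 genes were higher and 16% lower. The list was therefore above both the library with Dox and the wild-type library, and 18 of its genes were higher than at 48 hours. In that comparison 4.55% of 11722 genes were higher and 0.469% lower.

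Interferons act through the receptor genes Ifnar1 and Ifnar2 and through Stat2 and Irf9, whose products are part of a complex that binds a promoter element with paired GAAA cores. The receptor genes had log2 ratios of −0.12 and −0.06. Stat2 went from 5.70 RPKM with Dox to 7.96 at 48 hours and 23.8 at 96 hours, 4.19-fold higher (3.63 to 4.84), and Irf9 was 2.73-fold higher (2.16 to 3.47). Irf7, the factor that amplifies type I interferon production, had 0.170 RPKM with Dox, 0.330 at 48 hours and 12.05 at 96 hours. Its 3 reads with Dox and 225 after 96 hours give a 70.9-fold difference (23.9 to 346).

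To show how the element sits where it was found, the 250 bases before the RefSeq start of Isg15, Ifit1, Bst2 and B2m are printed from GRCm38.p6, 5′ to 3′ on the gene's strand. Capitals mark matches to GAAA, any 2 bases (NN) and GAAA, on either strand, where neighbouring matches may overlap by 4 bases. Isg15 lies on the minus strand at chr4:156200819-156201068, Ifit1 on the plus strand at chr19:34640639-34640888, Bst2 on the minus strand at chr8:71537473-71537722 and B2m on the plus strand at chr2:122147437-122147686.
Isg15: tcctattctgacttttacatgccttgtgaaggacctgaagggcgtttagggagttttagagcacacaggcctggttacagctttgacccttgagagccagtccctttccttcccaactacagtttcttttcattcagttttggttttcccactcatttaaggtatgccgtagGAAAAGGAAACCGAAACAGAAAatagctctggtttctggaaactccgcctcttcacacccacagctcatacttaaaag
Ifit1: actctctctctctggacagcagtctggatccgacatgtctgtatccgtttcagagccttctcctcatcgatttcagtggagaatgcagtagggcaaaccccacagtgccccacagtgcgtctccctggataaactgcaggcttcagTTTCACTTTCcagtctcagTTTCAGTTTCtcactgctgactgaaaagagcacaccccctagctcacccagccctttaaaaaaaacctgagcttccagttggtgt
Bst2: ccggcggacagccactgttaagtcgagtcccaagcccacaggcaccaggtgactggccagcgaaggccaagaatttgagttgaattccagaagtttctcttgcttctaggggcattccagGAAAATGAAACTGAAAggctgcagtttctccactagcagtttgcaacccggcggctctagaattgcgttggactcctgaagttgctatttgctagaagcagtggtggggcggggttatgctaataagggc
B2m: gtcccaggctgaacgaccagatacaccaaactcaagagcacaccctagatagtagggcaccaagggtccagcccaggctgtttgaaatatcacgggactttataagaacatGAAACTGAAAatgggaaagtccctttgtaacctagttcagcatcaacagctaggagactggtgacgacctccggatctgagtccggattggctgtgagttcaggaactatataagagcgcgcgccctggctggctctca

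The 3 matches of Isg15 begin 78, 72 and 66 bases before the start, the 2 of Ifit1 104 and 85, the 2 of Bst2 130 and 124, and the 1 of B2m 139. A match was held by 7 of the 17 interferon-stimulated genes with a RefSeq promoter (41.2%): Isg15, Ifit1, Ifit3, Oas1a, Bst2, Rsad2 and Stat2. Of all 27025 promoters of this length 3.46% held one, and of 9455 promoters of compared genes 3.004%. The other 10 held none, among them Irf7 and Oasl2, whose ratios were larger than those of Bst2 and B2m. A match is a run of letters in this window and not a measured binding site.

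Isg15, a ubiquitin-like protein attached to other proteins in the antiviral response, had no read with Dox, 26 reads after 48 hours and 175 after 96 hours. That is at least 55.1-fold higher than the limit of 3 reads that a count of 0 allows, while the interval, which also covers the counting error of the 96 hour reads, has a lower limit of 44.4-fold. Its levels were 0, 3.54 and 23.3 RPKM. Untreated KH2 cells had 9.02 RPKM, so the library with Dox was below and the 96 hour library above wild type. Rtp4 was likewise without a read with Dox and had 283 reads after 96 hours, at least 89.2-fold higher against the same floor, with an interval from 72.0-fold. Usp18, which removes Isg15 from proteins and dampens interferon signalling, went from 1 read to 372, a 352-fold difference with a wide counting interval (62.7 to 13925).

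The antiviral effectors followed the same order of libraries. Bst2, a membrane protein that tethers budding virus, was the most abundant of them, with 11.8 RPKM with Dox, 12.7 at 48 hours and 126 at 96 hours, 10.7-fold higher (8.69 to 13.3). Ifit1, which binds foreign RNA, had 0.121, 1.09 and 8.99 RPKM in turn, and its neighbour gene Ifit3 0.106, 1.24 and 8.85 RPKM. Oasl2 went from 4 to 449 reads (106-fold, 41.2 to 391), and Oas1a, an RNA sensor that starts RNA decay, from 5 to 173 reads. Bst2 and Irf7 were still near their level with Dox at 48 hours, whereas Isg15, Ifit1, Ifit3 and Oas1a were already called higher. Ifit2 (log2 ratio 0.67), Dhx58 (0.63) and the viral RNA sensor gene Ddx58 (0.99) did not pass, and Mx1 was too low to compare.

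Genes outside the list showed the same direction. Irgm1, an interferon-inducible GTPase, had 0.954 RPKM with Dox and 39.6 after 96 hours (41.4-fold, 26.7 to 68.2), and Ifi27 had 1.01 and 40.8 RPKM. All 6 comparable Oas genes and all 5 comparable Gbp genes were higher, and 7 of 8 Ifi genes. These families were chosen after their values were seen, and since only uniquely mapped reads were counted, reads of near-identical copies such as Oas1a and Oas1g, or of the Irgm, Ifi and Gbp genes, may be missing or split between members.

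Antigen presentation by MHC class I, an interferon-responsive pathway that is low in ESCs, was higher as well, to about the wild-type level. Of 15 listed genes 14 could be compared, and 9 were higher and none lower (median log2 ratio 1.37). At 48 hours only 9 could be compared, and none passed (median 0.17). The classical heavy chain genes H2-K1 and H2-D1 had 5.86 and 2.94 RPKM with Dox and 34.3 and 20.3 after 96 hours, and untreated KH2 cells had 37.2 and 14.8. Their folds were 5.86 (4.69 to 7.38) and 6.89 (5.09 to 9.52), and reads may be split between such similar genes. B2m, the shared light chain, went from 29.2 RPKM with Dox to 49.4 at 48 hours and 95.2 at 96 hours, 3.26-fold higher (2.81 to 3.78). Its wild-type level was 87.1 RPKM.

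The peptide supply genes moved with the chains. Tapbp, which loads peptides, was 4.10-fold higher (3.42 to 4.95), the transporter genes Tap1 and Tap2 were 3.28-fold (2.27 to 4.84) and 3.78-fold (1.92 to 8.12) higher, and the trimming peptidase gene Erap1 3.37-fold (2.26 to 5.15). The immunoproteasome genes Psmb8 and Psmb9 were weakly expressed, with 29 and 23 reads after 96 hours against 1 and 5 with Dox. Against untreated KH2 cells only 1 gene of the list was higher and 2 were lower, with a median log2 ratio of 0.01. In that comparison 4.29% of all compared genes were higher and 16% lower. The general chaperone genes Canx, Calr and Pdia3 of the list did not pass in the comparison with Dox.

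**Figure D3:**
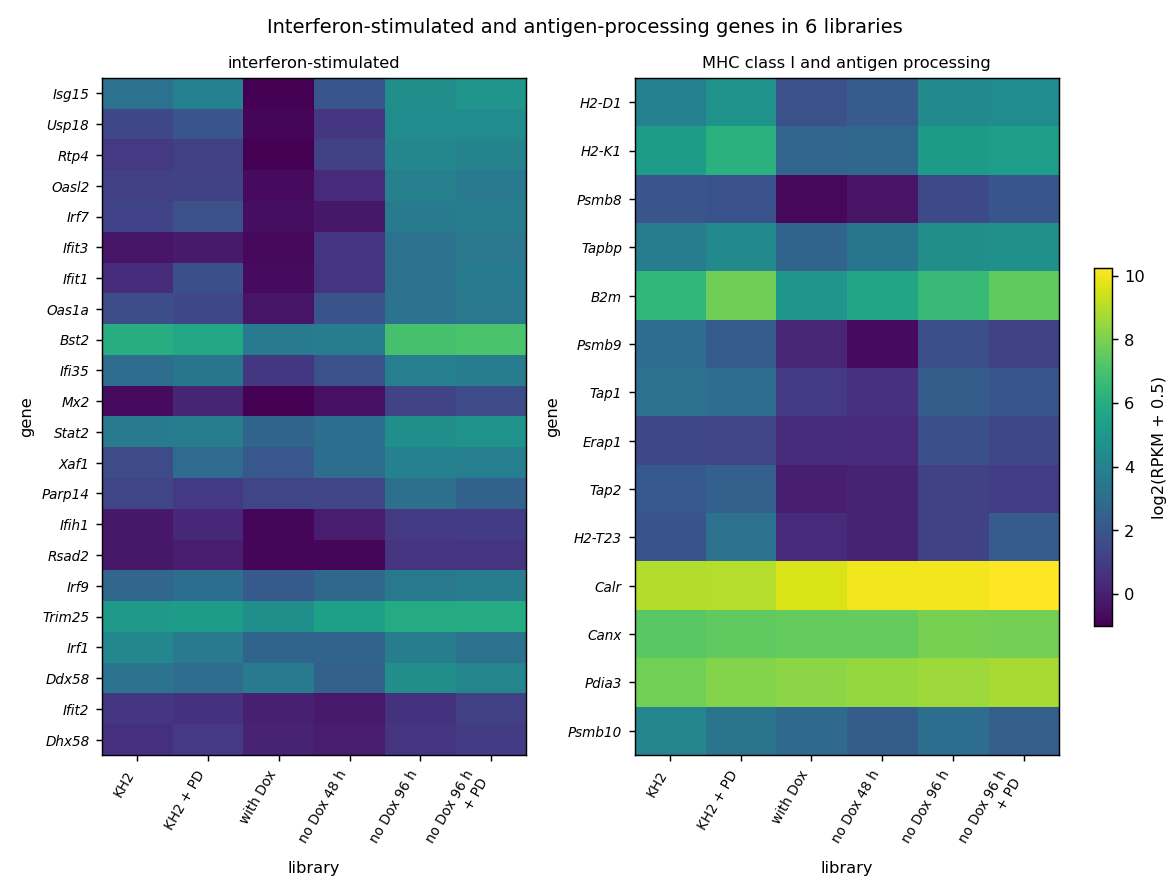
Heat maps of log2(RPKM + 0.5) for 22 of the 23 interferon-stimulated genes (left) and the 14 antigen-processing genes (right) that could be compared, 1 row per gene sorted by the 96 hour ratio and 1 column per library. The column with Dox is the darkest for most interferon-stimulated genes, with a median of 0.383 RPKM, and both 96 hour columns are the brightest, with 12.6 and 12.1 RPKM.

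Inflammatory mediators were also higher. Of 18 listed genes 9 could be compared, and 6 were higher and none lower, with a median log2 ratio of 1.81. At 48 hours 8 could be compared, and 5 were higher and none lower (median 1.90). The neutrophil chemokine gene Cxcl1 had 0.772 RPKM with Dox, 19.2 at 48 hours and 10.9 at 96 hours (14.2-fold, 6.64 to 36.1). Cxcl5, a related chemokine, went from 3 to 64 reads, and Saa3, an acute phase protein, from 13 to 129. The monocyte chemokine genes Ccl7 and Ccl2 were 3.76-fold (2.65 to 5.43) and 2.58-fold (1.91 to 3.53) higher. Cxcl10, an interferon-induced chemokine, had no read with Dox and 23 after 96 hours, at least 7.25-fold higher against that floor, with an interval from 5.43-fold.

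The second large group was that of genes induced by low oxygen. Hypoxia-inducible factor binds the core ACGTG in the promoters of its targets, and is itself degraded when the Egln hydroxylases have oxygen to mark it. Of 20 listed hypoxia genes outside glycolysis, which include Hif1a itself, 19 could be compared. Among these 12 were higher and none lower, with a median log2 ratio of 1.47. At 48 hours 18 could be compared, and 3 were higher (median 0.29). The median level was 55.1 RPKM in untreated KH2 cells, 11.2 with Dox, 12.5 after 48 hours and 28.1 after 96 hours. Against untreated KH2 cells 1 gene was higher and 6 were lower at 96 hours, where 4.29% of all compared genes were higher and 16% lower. By its median level the list lay between the library with Dox and untreated KH2 cells. With Dox 21.4% of all compared genes were lower than in KH2 cells. The oxygen level of the cultures is not given in the labels, and a difference in culture between libraries cannot be told apart from time without Dox.

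The 250 bases before the RefSeq start of 3 of these genes are shown because they hold the core in different places. They are from GRCm38.p6, 5′ to 3′ on the gene's strand, with matches to ACGTG on either strand in capitals. All 3 lie on the minus strand, Bnip3 at chr7:138909507-138909756, Ankrd37 at chr8:45999851-46000100 and Egln3 at chr12:54203875-54204124.
Bnip3: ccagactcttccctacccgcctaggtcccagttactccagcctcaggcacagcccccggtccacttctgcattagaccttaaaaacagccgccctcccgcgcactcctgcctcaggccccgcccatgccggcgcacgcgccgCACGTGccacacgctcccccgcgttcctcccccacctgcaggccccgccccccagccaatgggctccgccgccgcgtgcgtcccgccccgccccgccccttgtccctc
Ankrd37: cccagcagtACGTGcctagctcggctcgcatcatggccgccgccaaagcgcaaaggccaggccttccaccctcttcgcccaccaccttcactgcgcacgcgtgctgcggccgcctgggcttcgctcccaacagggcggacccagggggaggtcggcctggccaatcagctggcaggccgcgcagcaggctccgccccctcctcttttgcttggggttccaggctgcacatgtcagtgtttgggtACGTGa
Egln3: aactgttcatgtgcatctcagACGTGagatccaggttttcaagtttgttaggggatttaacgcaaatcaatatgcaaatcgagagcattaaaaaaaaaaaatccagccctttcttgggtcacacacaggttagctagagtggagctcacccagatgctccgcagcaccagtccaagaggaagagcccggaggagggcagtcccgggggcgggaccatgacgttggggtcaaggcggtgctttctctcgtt

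Matches begin 108 and 107 bases before the start in Bnip3, where they are both strands of 1 palindrome, 241 and 6 in Ankrd37, and 229 in Egln3. The core was held by 12 of the 15 listed hypoxia genes with a RefSeq promoter (80.0%), Hif1a among them, and by 11 of 23 glycolytic genes (47.8%). Of all promoters of this length 18.5% held it and of those of compared genes 25.8%. The 12 included genes that did not pass, such as Vegfa, Ddit4 and Mxi1, so the core did not separate members that were higher from the others.

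Ndrg1, a stress-induced gene of differentiation, had 2.78 RPKM with Dox, 12.4 at 48 hours and 49.3 at 96 hours, 17.8-fold higher (14.1 to 22.7). Its level in untreated KH2 cells was 45.4 RPKM. Bnip3, which directs mitochondria to autophagy, went from 31.0 RPKM with Dox to 67.0 and 244, 7.86-fold higher (7.17 to 8.63), against 279 in untreated KH2 cells. For both genes the 96 hour library was near wild type and the library with Dox far below it. Ndufa4l2, a mitochondrial protein that is strongly induced by hypoxia and was not on the list, went from 17 to 351 reads (19.5-fold, 12.01 to 33.9).

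The oxygen sensor genes were among the higher ones. Egln3 had 6.31 RPKM with Dox, 4.97 at 48 hours and 28.2 at 96 hours (4.47-fold, 3.76 to 5.33), and Egln1 was 2.88-fold higher (2.49 to 3.33). Ankrd37 went from 33 to 226 reads, and the oxidase gene Ero1a of protein folding from 24.2 to 112 RPKM. The collagen-modifying enzyme genes P4ha1, P4ha2, Plod2 and Lox had log2 ratios of 1.76, 1.56, 1.62 and 1.20, the vasodilator gene Adm 1.87 and the mitophagy gene Bnip3l 1.07. Not every target passed: the angiogenic factor gene Vegfa (0.72), Ddit4 (0.78), Higd1a (0.76) and Kdm3a (0.63) were below the limit. The transcript of Hif1a itself went from 53.5 to 28.0 RPKM, short of a lower call (−0.92), and its relative Epas1 was 2.49-fold higher (2.27 to 2.74).

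Glycolytic genes differed by less. Among 24 genes, 7 were higher and none lower (median log2 ratio 0.60). At 48 hours 22 could be compared, and none was higher and 1 lower (median 0.12). Pygl, which releases glucose units from glycogen, had 6 reads with Dox and 141 after 96 hours (22.2-fold, 9.95 to 61.6). The lactate exporter gene Slc16a3 had 16.6 and 78.4 RPKM (4.72-fold, 4.23 to 5.27), and Aldoc, Pfkp and Hk1, an aldolase, a phosphofructokinase and a hexokinase, were 3.73-fold (2.97 to 4.72), 3.35-fold (3.16 to 3.56) and 2.92-fold (2.70 to 3.16) higher. Pfkfb3 and Eno2 completed the 7. The abundant enzymes Ldha (log2 ratio 0.95) and Pgk1 (0.90) fell just short of the limit, and the glucose transporter gene Slc2a1 (−0.18) and Gapdh (−0.39) had negative ratios. Against untreated KH2 cells no gene of the list was higher and 6 were lower, where 4.29% of all compared genes were higher and 16% lower.

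**Figure D4:**
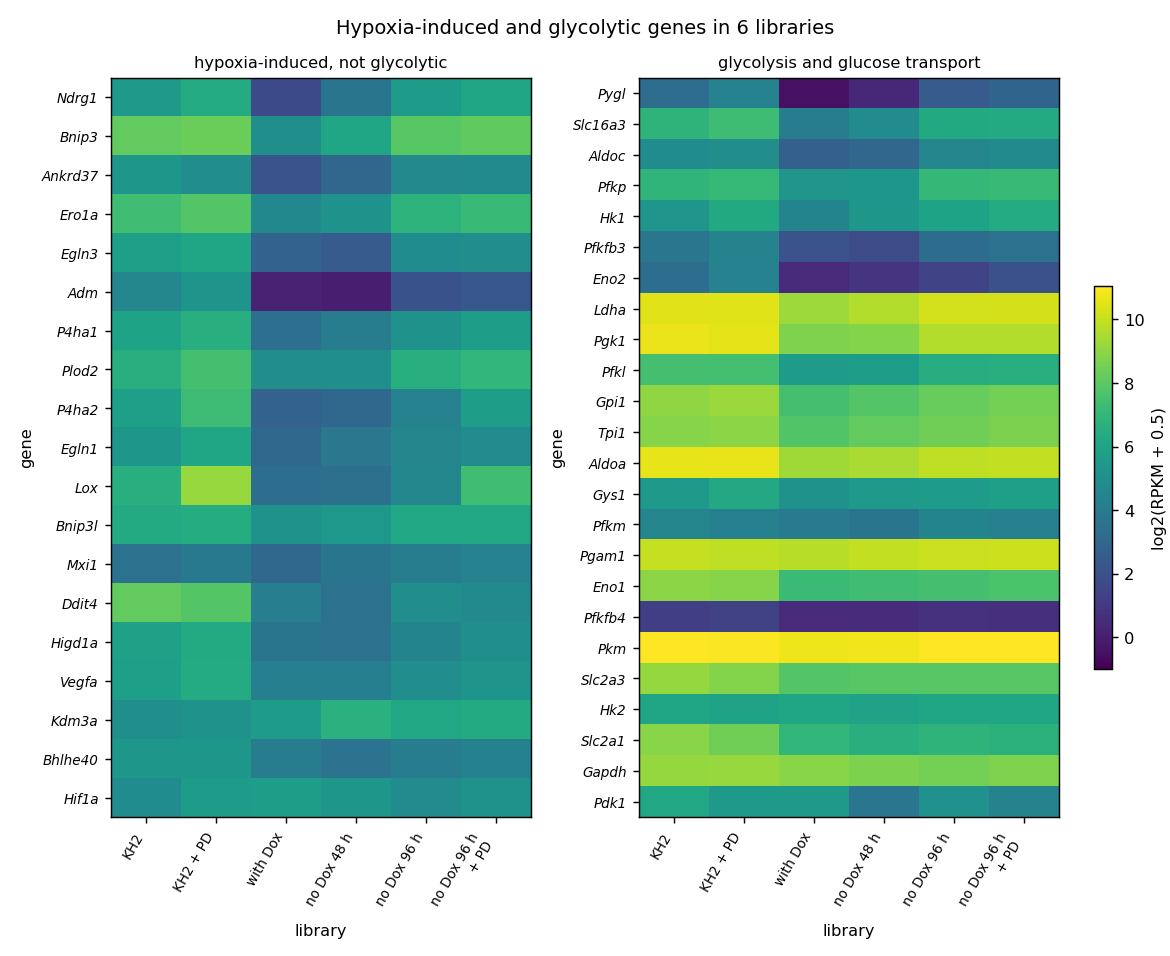
Heat maps of log2(RPKM + 0.5) for the 19 hypoxia-induced genes (left) and 24 glycolytic genes (right) that could be compared, 1 row per gene sorted by the 96 hour ratio and 1 column per library. For most hypoxia-induced genes the columns with Dox and at 48 hours are darker than the KH2 and 96 hour columns, with medians of 11.2 and 12.5 against 55.1 and 28.1 RPKM.

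Naive pluripotency genes split in both directions. Among 18 genes, 5 were higher and 2 lower (median log2 ratio 0.26), and at 48 hours 6 were higher and none lower (median 0.54). Nanog, a core factor of the naive state, had 105 RPKM with Dox, 397 at 48 hours and 296 at 96 hours, 2.82-fold higher (2.65 to 2.998). Dppa3, a maternal factor that protects methylation marks in the early embryo, had 8.45, 92.2 and 73.1 RPKM in turn, 8.65-fold higher (6.69 to 11.4). Prdm14, which represses de novo methylation in naive cells, went from 4.80 to 19.7 and 18.4 RPKM, Spic from 1.34 to 24.4 and 9.60, and Tcl1 from 10.6 to 26.5 and 25.4. These 5 genes were at or above their 96 hour level already at 48 hours, and above untreated KH2 cells in both libraries except Tcl1.

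Klf5 and Nr0b1, a naive transcription factor and a nuclear receptor, were the 2 lower genes. Klf5 went from 125 RPKM with Dox to 54.1 (2.31-fold lower, 2.13 to 2.49) and Nr0b1 from 49.6 to 21.3 (2.32-fold lower, 2.06 to 2.63). The level of Klf5 in untreated KH2 cells was 59.9 RPKM, near that of the 96 hour library. Klf4 (log2 ratio −0.68), Esrrb (−0.65), Klf2 (0.25), Tbx3 (0.27) and Zfp42 (0.56) did not pass. The general pluripotency factors Pou5f1 (0.11) and Sox2 (0.35) stayed under the limit, with 556 and 600 RPKM for Pou5f1. Of 17 general pluripotency genes none was higher and 2 were lower, Utf1 (114 to 55.6 RPKM) and Lin28a (109 to 53.7 RPKM), a blocker of let-7 processing. Of 17 genes of the LIF and Stat3 pathway, which supports self-renewal, 4 were lower (Gbx2, Bcl3, Junb and Klf5) and Pramel7 was higher.

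Genes of the formative and primed states, which precede lineage choice, had more higher calls at 96 hours than at 48. Of 21 genes 19 could be compared, and 5 were higher and 2 lower (median log2 ratio 0.36), while at 48 hours 1 was higher and 4 were lower (median −0.40). Otx2, a formative transcription factor, had 11.1 RPKM with Dox, 23.6 at 48 hours and 47.3 at 96 hours, 4.27-fold higher (3.63 to 5.05) and above the 26.9 RPKM of untreated KH2 cells. Lef1, a Wnt effector, had 2.30, 1.47 and 9.72 RPKM, and Pou3f1, the other early formative factor, 2.26, 1.33 and 5.37. Untreated KH2 cells had more of both, with 16.5 and 12.6 RPKM. Cldn6 and Zic2 had log2 ratios of 1.16 and 1.07. Tcf15, an early Fgf-dependent factor of priming, was 3.43-fold lower (2.59 to 4.59), and the Wnt receptor gene Fzd7 2.70-fold lower (2.39 to 3.04). Fgf5, the usual marker of primed cells, was too weak to compare, with 2 reads with Dox and 12 after 96 hours.

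The de novo methyltransferase genes were closer to the level with Dox at 96 than at 48 hours, when Dnmt3a and Dnmt3l were called lower. Dnmt3a had 33.1 RPKM with Dox, 9.34 at 48 hours and 20.01 at 96 hours (log2 ratio −0.71 at 96 hours). Dnmt3l, their catalytically inactive partner, had 132, 55.1 and 221 RPKM (0.74), and Dnmt3b 71.6, 40.9 and 51.4 (−0.48). At 96 hours none of the 3 passed, and of 14 methylation genes Prdm14 was the 1 that did.

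Several primitive endoderm genes, which depend on Fgf and Erk in the blastocyst, were lower after 96 hours. Of 23 listed genes 17 could be compared, and 6 were lower and none higher (median log2 ratio −0.66), while at 48 hours 1 was lower (median −0.07). Gata6, the factor that opposes Nanog and starts this lineage, had 8.32 RPKM with Dox, 2.58 at 48 hours and 1.20 at 96 hours, 6.96-fold lower (4.93 to 10.1). It was thus already reduced at 48 hours. Cubn and Dab2, an endocytic receptor and its adaptor, were instead not called at 48 hours: Cubn had 3.19, 3.26 and 0.275 RPKM (11.6-fold lower, 8.02 to 17.3) and Dab2 13.7, 12.996 and 2.93 (4.66-fold lower, 3.85 to 5.67). The laminin gene Lama1, the receptor gene Pdgfra and the transcription factor gene Sox7 had log2 ratios of −1.21, −1.19 and −1.08, and Gata4 −0.83 without a call. The 7 fixed markers of this lineage summed to 37.2 RPKM with Dox, 26.9 at 48 hours and 10.7 at 96 hours, and to 36.7 in untreated KH2 cells. The sum over the whole list did not fall: it was 579 RPKM with Dox, 699 at 48 hours, 650 at 96 hours and 601 in untreated KH2 cells. Ratios at 96 hours were negative for 12 of the 17 genes and positive for 5. In bulk RNA fewer cells of a type and less RNA per cell cannot be told apart.

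Other lineages gave small and mixed counts. Of 12 comparable neuroectoderm genes 4 were lower and 2 higher: the neural factors Pax6 (6.55-fold lower, 3.84 to 11.9) and Sox1 (3.06-fold lower, 2.24 to 4.24), with Gbx2 and Neurod1, against Nes and Ncam1. In untreated KH2 cells Pax6 had 0.970 RPKM and Sox1 0.409, below the library with Dox (3.31 and 4.19). Their 96 hour levels were 0.506 and 1.37 RPKM. Of 5 comparable streak and mesoderm genes Bmp4 and Cdx1 were lower, with log2 ratios of −1.39 and −1.49. Bmp4 had 6.68 RPKM in untreated KH2 cells, 14.4 with Dox and 5.19 after 96 hours, and Cdx1 8.80, 4.62 and 1.32 in turn. Of 13 comparable trophoblast genes 6 were higher and 1 lower. The higher ones were Gata3 (4.10-fold, 2.31 to 7.73), Ascl2, Esx1, Krt19, Rhox6 and Rhox9, the lower one was Krt8, and the 6 fixed trophoblast markers summed to 63.1 RPKM with Dox and 43.9 after 96 hours. The count of higher trophoblast genes was 1 with at least 100 reads required, and 1 with untreated KH2 cells as the reference. Rhox6, Rhox9 and Ascl2 had 4, 4 and 5 reads with Dox. Of 15 comparable germline genes 5 were higher, among them the RNA-binding factor gene Dazl (1.55 to 8.78 RPKM), the meiotic genes Hormad1 (7.53 to 30.4 RPKM) and Stra8 (8.25 to 29.3 RPKM), and Ddx4 was lower.

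Of 16 comparable genes of the Nodal and BMP pathways 3 were higher and 2 lower, with a median log2 ratio of 0.45. Ratios were positive for 12 of them and negative for 4. Lefty2, a Nodal target and inhibitor, had 23.4 RPKM with Dox, 71.7 at 48 hours and 172 at 96 hours, 7.34-fold higher (6.72 to 8.04). Bmp4 and the BMP target Id1 were lower, with Id1 at 28.8 and 10.4 RPKM, and Id4 was higher (log2 ratio 1.07). Among the Fgf genes Fgf10 was 2.40-fold higher (1.99 to 2.91), the Fgf carrier gene Fgfbp1 went from 50 reads to 4, and Fgf4, the main Fgf of ESCs, had 56.2 and 109 RPKM, just below the limit (log2 ratio 0.94). Of 10 comparable Wnt genes 2 were higher (Lef1 and Notum) and 3 lower (Cdx1, Porcn and Myc).

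Several secreted protease genes were higher after 96 hours, and some of these had lower levels in the library with PD0325901. Of 17 comparable matrix protease and inhibitor genes 7 were higher and 1 lower (median log2 ratio 0.64). In the 96 hour library with PD0325901 5 listed genes were higher than with Dox and 2 lower. In that comparison 10.9% of all compared genes were higher and 3.08% lower. The listed genes summed to 297 RPKM at 96 hours and 534 with the inhibitor added, and in KH2 cells to 562 without and 1458 with it. Mmp3, a stromelysin, had 1.20 RPKM with Dox, 7.99 at 48 hours and 18.5 at 96 hours, 15.4-fold higher (9.91 to 25.2), but 2.08 RPKM at 96 hours with PD0325901. The neighbouring genes Mmp10 and Mmp13 were both 13.01-fold higher (7.95 to 22.7), with 1.42 and 2.17 RPKM with the inhibitor. Mmp13 was still called higher there than with Dox, whereas Mmp3, Mmp10 and Serpinb2 were not. Serpinb2, an inhibitor of plasminogen activators, had 1.59 and 8.11 RPKM and 1.11 with the inhibitor. In KH2 cells Mmp3 and Serpinb2 were also lower with PD0325901 (0.833 and 0.716 RPKM) than without (4.14 and 10.03). Plaur, the receptor of urokinase, was the lower gene, with 18.7 and 7.56 RPKM.

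Markers of fibroblasts, which could enter as feeder cells, were present in every library. The 10 fixed fibroblast markers summed to 441 RPKM with Dox, 428 at 48 hours and 470 at 96 hours, with none at 0, and to 835 RPKM in untreated KH2 cells. They summed to 2561 and 989 RPKM in the libraries with PD0325901. Between the libraries with Dox and at 96 hours 1 of the 10 was higher, the matrix proteoglycan gene Dcn (3.04 and 12.6 RPKM), and Col1a1 had 17.2 and 25.9 RPKM (log2 ratio 0.58). Of the 4 fixed macrophage markers none passed, with sums of 6.89 and 14.6 RPKM that were mostly Cd68, and Adgre1 went from no read to 16. On the wider list of 8 macrophage genes 2 could be compared, and Lyz2, a lysozyme gene, was higher, with 2.01 RPKM with Dox, 6.14 at 48 hours and 8.17 at 96 hours (4.06-fold, 2.48 to 6.98) and 0.312 in untreated KH2 cells. The part of such cells in the protease, chemokine and interferon genes was not tested.

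Imprinted genes differed in both directions. Grb10, an imprinted adaptor that restrains insulin and Igf signalling, had 66.7 RPKM with Dox, 25.98 at 48 hours and 14.7 at 96 hours, 4.53-fold lower (4.18 to 4.91). Of 23 comparable imprinted genes 5 were higher and 6 lower. The noncoding RNAs Rian and Meg3, of 1 imprinted cluster, were 3.09-fold (2.84 to 3.37) and 3.01-fold (2.69 to 3.37) lower, and Igf2, Phlda2 and Peg10 were lower too. The higher ones were Mest (4.94-fold, 3.51 to 7.11), Dcn, Ascl2, Plagl1 and Peg3. Among 14 comparable genes of the Igf list 4 were higher and 1 lower. The binding protein genes Igfbp4, Igfbp5 and Igfbp2, 3 of 6 comparable Igfbp genes, were higher. Their folds were 6.20 (5.14 to 7.54), 5.72 (4.03 to 8.34) and 3.91 (3.63 to 4.22). The amino acid stress genes Atf4, Atf5, Trib3 and Chac1 were 4 lower genes among 24, and Sdf2l1 was the 1 higher gene. Atf4, the factor that drives this response, had 354 RPKM with Dox and 171 after 96 hours, against 167 in untreated KH2 cells.

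The housekeeping machinery of proliferating ESCs differed little between the libraries. None of 34 G1/S and replication genes, 40 DNA damage response and repair genes, 42 ribosomal protein genes, 29 respiratory chain genes or 23 cholesterol synthesis genes passed, and their median log2 ratios were 0.05, 0.03, 0.11, 0.20 and 0.14. Of 29 G2/M genes Kif23 was higher, of 25 telomere genes Nabp2 was lower, and of 24 apoptosis genes Bok was higher. The cell cycle inhibitor genes Cdkn1a (log2 ratio 0.88) and Cdkn1b (0.50), the cyclin gene Ccnd1 (−0.21), the telomerase gene Tert (0.05) and the pro-apoptotic gene Bcl2l11 (0.03) did not pass. Of 30 p53 targets Btg2 and Trp53inp1 were higher and Gadd45a was lower. Of 28 housekeeping genes the transferrin receptor gene Tfrc was the 1 that passed, at 81.7 and 240 RPKM. Its level in untreated KH2 cells was 212 RPKM.

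**Figure D5:**
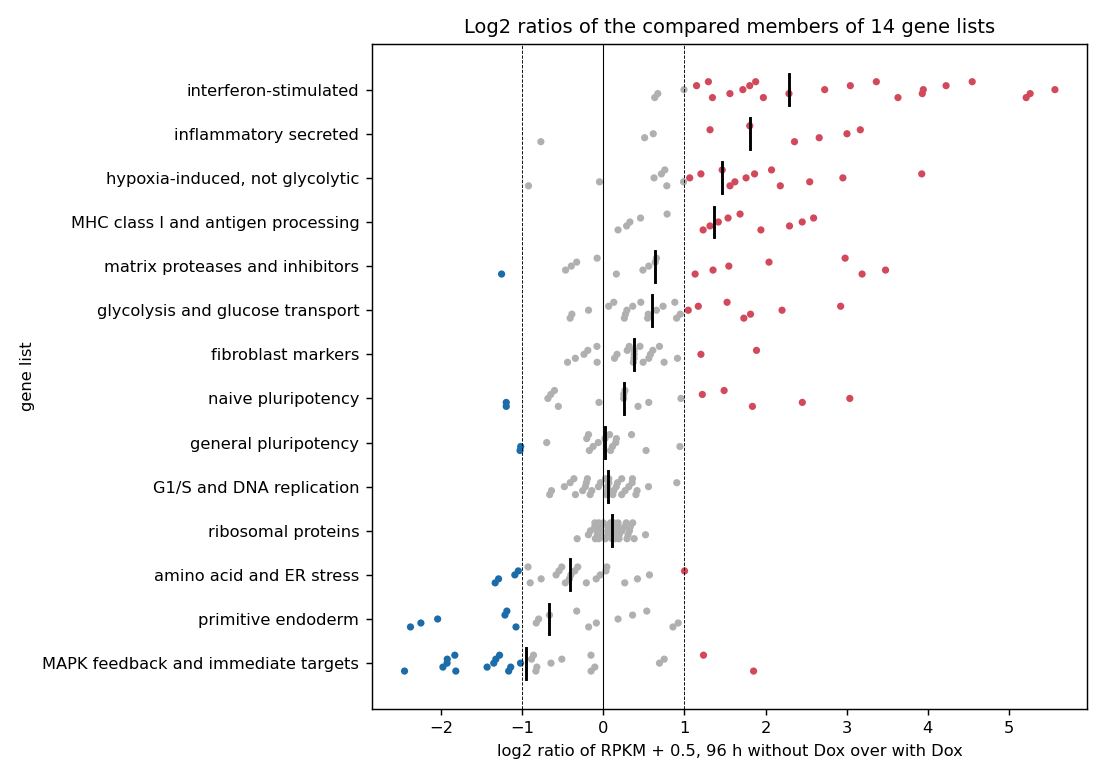
Log2 ratios of RPKM + 0.5, 96 hours without Dox over with Dox, for the compared members of 14 gene lists; each point is 1 gene, red if higher, blue if lower and grey if it did not pass, the black bars are list medians and the dashed lines the 2-fold limits. The interferon-stimulated list lies furthest right with a median of 2.29 and MAPK targets furthest left with −0.95, while ribosomal proteins (0.11) and G1/S genes (0.05) stay near 0.

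Scaling for library composition moved the centre of all ratios by less than 0.1 on the log2 scale. With TMM factors 753 genes were higher and 294 lower, with DESeq2 size factors 769 and 283, and with the median of the housekeeping genes 767 and 286. Under TMM 20 interferon-stimulated genes, 9 MHC genes and 11 hypoxia-induced genes were higher.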

How the data were processed

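PolyA RNA of 6 libraries, 1 per group, was read as single-end runs of 50 bases. The deposited read count of a gene holds uniquely mapped reads, per the file headers. The RPKM values deposited with it were scaled by the authors to that count's total, and the deposited percent is the share of a gene's length covered by reads. The submitters' processing notes name mm9 as the build. Aligner and annotation are not given in the sources used here. A gene absent from a file was set to 0 reads, and files were joined by gene ID over 18857 genes, 18805 of them in the RefSeq table, which gave missing symbols. Lengths differed between both libraries for 9 genes. Strands were not separated.

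Log2 ratios used RPKM plus 0.5, and 95% intervals are exact (Clopper-Pearson, from the share of reads in either library, scaled by totals). They and the floor of 3 reads for a count of 0 cover counting error only, since reads carried no molecular identifiers. Alternatives were TMM (edgeR 4.0.16), DESeq2 1.42.0 size factors, 2 further scalings, other pseudocounts, filters and limits, and edgeR's quasi-likelihood fit over all 6 libraries.

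The comparison, its 43 gene lists and its members were chosen with earlier results of these data known. Genes were named by a rule: the 15 highest and 15 lowest ratios with at least 100 reads, up to 5 passing members of each list, members that complete a count of 5 or fewer, and a fixed set of Erk and pluripotency genes. Other list members and genes are named for their roles, and were chosen after their values were seen. Some genes that the rule names are left out here.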

Additional observations from a re-analysis of the deposited data

How the results depend on the processing

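Counts of genes higher and lower against the library with Dox were 899 and 244. They stayed within 1.5 times of this under the 4 other scalings (753 to 885 higher and 249 to 294 lower), with a pseudocount of 0.1 (1111 and 320) or 1 (667 and 187) and without filters (1064 and 256). At least 100 reads gave 581 higher and 179 lower, a limit of 1.5-fold 1955 and 788, and a limit of 3-fold 320 and 55; by construction these move the counts. edgeR's quasi-likelihood fit over all 6 libraries called 1997 higher and 1631 lower of 12912 at an adjusted threshold of 0.05. It assumes additive effects and has 1 residual degree of freedom. Alternatives added after the data were seen changed a library: untreated KH2 as the reference gave 541 and 2016, the 48 hour library as the reference 533 and 55, and the 96 hour library with PD0325901 gave 1298 and 367. The cause was not tested. Among lists, glycolysis went from 7 higher to 0, hypoxia from 12 to 1 and MHC from 9 to 1 with KH2 as the reference, and interferon from 20 to 15. The 13 lower MAPK targets became 0 and the 5 higher naive genes 0 with the 48 hour library as the reference. Of 132 named genes that passed, Id4, Igf2bp2 and Sdf2l1 did not pass with TMM, Cbx8 and Rhox9 did not in the edgeR fit, and Cbx8, Efna1, Epha7, Id4, Neurod1, Rhox9, Sdf2l1 and Tgfbi did not with a pseudocount of 1. No named gene that passed changed direction under the scalings, the pseudocounts or the edgeR fit. No paired analysis was possible because each group has 1 library and the labels carry no replicate numbers, and for that reason no library could be left out. Without replicates the spread between cultures is unknown, and for genes with few reads with Dox the interval, not the fold, sets what can be said.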

Other observations

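The genes that follow had large ratios and are named for that, and those not among the highest and lowest were chosen after their values were seen. Pramel7, of a family expressed in the early embryo and germ line, had 0.286 RPKM with Dox, 11.2 at 48 hours and 13.9 at 96 hours (48.8-fold, 20.6 to 151), and 0.118 in untreated KH2 cells. Pramel6 had 0.966, 11.3 and 6.72 RPKM in turn and no read in untreated KH2 cells. Reads of such similar copies may be lost or split under unique mapping. Several genes best known from blood cells were also higher at both times: Cd84 had 3.88, 44.4 and 32.9 RPKM, Cd3g, a chain of the T cell receptor complex, 0.208, 4.03 and 11.4, and the thymic chemokine gene Ccl25 2.13, 15.7 and 38.2. Marco, a scavenger receptor of macrophages, had no read with Dox, 22 at 48 hours and 116 at 96 hours, at least 36.5-fold higher against the floor of 3 reads (interval from 29.3-fold), and 13.7 RPKM with PD0325901. The defining leukocyte genes Ptprc and Csf1r had 3 and 5 reads in the 96 hour library.

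A2m, a protease-trapping protein of plasma, had 7.10 RPKM with Dox, 21.8 at 48 hours and 88.2 at 96 hours, against 21.6 in untreated KH2 cells. The glutamate transporter genes Slc1a1 and Slc1a3 went opposite ways, Slc1a1 from 1.12 to 18.4 RPKM (16.5-fold higher, 11.9 to 23.4) and Slc1a3 from 8.37 to 1.72 (4.88-fold lower, 3.77 to 6.39). Among the lowest ratios was also Gna14, a G protein subunit, from 147 reads with Dox to 15. It had more RPKM with Dox (4.62) than in untreated KH2 cells (1.43), and less at 96 hours (0.445). Trh, a neuropeptide precursor, had 154 RPKM with Dox, 35.4 at 48 hours and 42.7 at 96 hours, and 4.27 with PD0325901 added, against 147 in untreated KH2 cells and 25.9 with PD0325901.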
